A study of Mus musculus with 44 samples.

Results

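The JAK-STAT pathway carries cytokine signals from the cell surface to the nucleus, and 9 of its genes were followed here through 22 groups of mouse macrophage libraries. They are 6 STAT transcripts, Stat2, Stat3, Stat4, Stat5a, Stat5b and Stat6, and 3 inducible feedback genes, Socs1, Socs3 and Cish. They were chosen by gene symbol, with earlier results of these data known, and make up 9 of the 24940 genes listed in each of 4 count tables. All 9 passed the filter on low counts in every table.

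A STAT protein waits in the cytoplasm until a Janus kinase (JAK) bound to a cytokine receptor phosphorylates it, after which it pairs with another STAT, enters the nucleus and binds DNA. STAT2 works with IRF9 in the interferon-activated complex ISGF3, STAT3 follows receptors of the IL6 and IL10 type, STAT4 follows IL12, STAT5A and STAT5B follow colony-stimulating factors and the IL2 family, and STAT6 follows IL4 and IL13. SOCS1, SOCS3 and CIS, the product of Cish, are induced by such signals and block receptors or JAKs, so that their transcripts are widely read as reporters of recent cytokine signalling.

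All libraries were poly(A) RNA-seq of bone marrow-derived macrophages from C57BL/6 mice, grown in medium conditioned by L929 cells, a source of M-CSF, and each group had 2 libraries. In the NCoR table, WT denotes NCoR flox/flox cells, which carry the floxed allele without Cre, and NKO denotes NCoR flox/flox, LysMCre cells, in which the Lyz2 promoter drives Cre in myeloid cells and removes the corepressor NCoR. Both genotypes received vehicle (Veh), IL4, interferon-β (IFNb), the TLR3 agonist poly I:C (PolyIC) or the TLR4 agonist Kdo2-lipid A (KLA) for 6 h, or RANKL, the osteoclast differentiation factor, for 12 h. In the RGFP966 table, wild type cells received vehicle, KLA or KLA with RGFP966, an inhibitor of the deacetylase HDAC3. In the Pgc1b table, Pgc1b flox/flox cells with or without LysMCre received vehicle or KLA. In the TBK1i table, wild type cells received DMSO with vehicle, DMSO with KLA, or KLA with GSK8612, an inhibitor of the kinase TBK1 (TBK1i_KLA). Vehicle and KLA were given for 6 h in these tables as well. By the paper's methods, RGFP966 and GSK8612 were added at the start of serum starvation, 12 h before KLA. The labels do not say whether the 2 libraries of a group came from separate animals or cultures, so the p-values measure the spread between these libraries, which may be technical.

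Counts assigned to genes ranged from 8323493 to 16783155 per library, so that 3 counts corresponded to between 0.179 and 0.36 CPM (counts scaled to an equal library total). Levels were given as CPM after the library totals had been adjusted by the trimmed mean of M-values (TMM). Ncor1 was at 49.4 to 65.0 CPM in the 12 NKO libraries and at 133 to 215 CPM in the 12 WT libraries. Ppargc1b did not show the deletion in the libraries labelled Pgc1b_flox_Cre. It was at 3.75 and 3.41 CPM in Pgc1b_flox_Cre_Veh against 4.38 and 2.88 in Pgc1b_flox_Veh, which overlap. With KLA it was higher in the libraries labelled with Cre, at 10.3 and 8.74 CPM in Pgc1b_flox_Cre_KLA against 7.81 and 6.78 in Pgc1b_flox_KLA, without overlap. These counts are summed over the gene, and the exons that the floxed allele removes were not looked at alone. For the loss of Pgc1b, every direction drawn from these libraries therefore rests on their label. The paper shows an immunoblot of PGC1β protein for both genotypes. Lyz2, whose promoter drives Cre, was lower in both Cre groups. At vehicle it was at 4397 to 4422 CPM against 8108 to 8325, and with KLA at 4393 to 4533 against 8049 to 8292. In the NCoR table Lyz2 was likewise lower in NKO than in WT under every condition. It was at 4581 to 4626 CPM against 9129 to 9288 at vehicle and at 3094 to 3160 against 8985 to 9229 with KLA. Xist was at or under 0.081 CPM in the 8 Pgc1b-table libraries and both NKO_KLA libraries, and at 721 to 1110 CPM in the other 34. The column names carry date stamps, and NKO_KLA was stamped 1401 days before WT_KLA and WT_Veh 115 days after WT_KLA, so at KLA the effects of genotype, stamp and sex of the animal cannot be told apart. WT_RANKL was stamped 536 days before WT_Veh. The summed level of 7 macrophage markers was 4379 to 12476 CPM over all libraries, and those of 8 T and NK cell, 5 B cell and 4 dendritic cell markers reached at most 68.8, 8.63 and 13.7 CPM. Markers of neutrophils and their precursors (6 genes) summed to 710 to 1094 CPM in the RANKL groups and to 22.5 CPM or less elsewhere. The column names call the RANKL cells osteoclasts, and 6 osteoclast markers summed to 90.5 to 92.7 CPM in WT_RANKL and 53.9 to 65.8 CPM in WT_Veh, within a range of 53.9 to 176 CPM over all libraries. WT_Veh was the least even group, and its replicate 2 held more Stat2, Stat3 and Socs3 than its replicate 1. Comparisons of the members against WT_Veh are therefore given without each of these libraries where that ends or makes a call. Counts over other gene lists were not repeated in this way.

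At rest, Stat6 was the most abundant of the 9 transcripts per length. In WT_Veh its level was 78.4 ± 0.664 RPKM (reads scaled to transcript length and library total, mean ± SD, n = 2), against 35.8 ± 11.4 for Stat3, 17.8 ± 7.21 for Stat2, 14.1 ± 0.521 for Stat5b and 7.07 ± 0.211 for Stat5a. Stat4 stood at 0.533 ± 0.166 RPKM. The feedback genes were nearly silent, at 1.54 ± 0.430 RPKM for Socs1, 1.60 ± 1.40 for Socs3 and 0.0570 ± 0.0163 for Cish, the last resting on 3 and 2 counts. Stat6, then Stat3, also led the STAT transcripts in the other 3 unstimulated control groups, with Stat6 at 57.7 ± 0.719, 64.8 ± 4.04 and 71.3 ± 2.57 RPKM in Veh, Pgc1b_flox_Veh and DMSO_Veh. In bulk RNA, fewer cells that express a gene and less of its RNA per cell cannot be told apart.

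**Figure D1:**
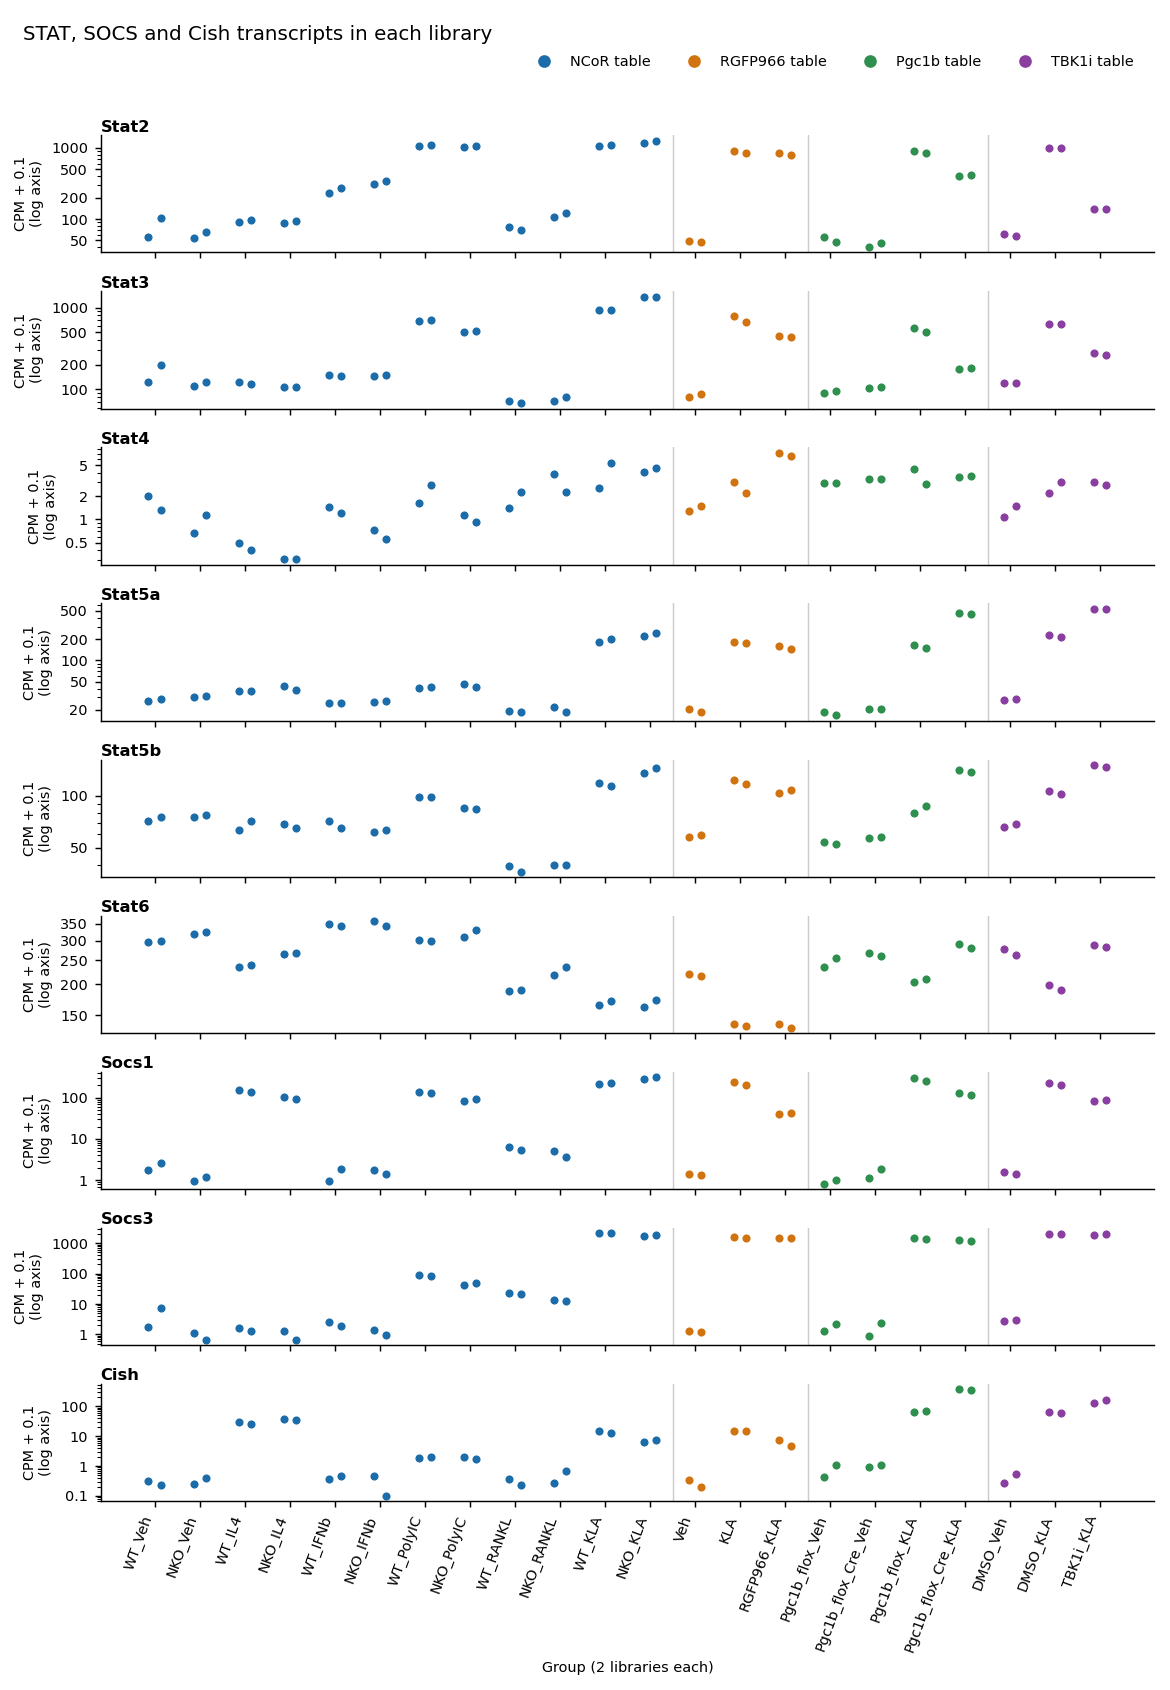
Level of each of the 9 transcripts in all 44 libraries, as CPM + 0.1 on a log axis, with 1 point per library, replicate 1 left of replicate 2, grouped by condition along the horizontal axis and coloured by count table. Socs1, Socs3 and Cish span a far wider range than the STAT transcripts, while Stat6 stays between 134 and 359 CPM in all 44 libraries.

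In the deposited mm10 annotation, Stat3 (chr11:100886806-100939540, minus strand), Stat5a (chr11:100859351-100885169, plus) and Stat5b (chr11:100780731-100822570, minus) lie side by side. Stat2 (chr10:128270498-128292853) and Stat6 (chr10:127642986-127660987) are on chromosome 10, both on the plus strand, and Stat6 shares 70 bases with Nab2 on the opposite strand. Stat4 lies at chr1:52008240-52107189 (plus), Socs1 at chr16:10783809-10785536 (minus), Socs3 at chr11:117966087-117969366 (minus) and Cish at chr9:107296659-107302784 (plus). The summed exon length ran from 1335 bases for Socs1 to 5234 for Stat5b.

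The 250 bases upstream of the transcript start were read for the members whose deposited start matched a promoter of the RefSeq table (8 of 9, all but Stat5a, GRCm38.p6, the build named mm10 in the files). They are shown for Stat2, Socs1, Socs3 and Cish because these genes moved most. Capitals mark matches, on either strand, to TTC and GAA with any 3 or any 4 bases between them, the spacings of palindromic STAT sites, and to GAAA and GAAA with any 2 bases between them, the core of the interferon-stimulated response element bound by ISGF3 and IRF proteins. The regions are chr10:128270248-128270497 (plus strand) for Stat2, chr16:10785537-10785786 (minus) for Socs1, chr11:117969367-117969616 (minus) for Socs3 and chr9:107296409-107296658 (plus) for Cish.
Stat2: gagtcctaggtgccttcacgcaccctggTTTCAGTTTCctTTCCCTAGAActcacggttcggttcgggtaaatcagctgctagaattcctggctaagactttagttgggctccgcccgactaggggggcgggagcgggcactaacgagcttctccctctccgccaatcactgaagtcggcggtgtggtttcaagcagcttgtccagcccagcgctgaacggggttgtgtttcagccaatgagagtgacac
Socs1: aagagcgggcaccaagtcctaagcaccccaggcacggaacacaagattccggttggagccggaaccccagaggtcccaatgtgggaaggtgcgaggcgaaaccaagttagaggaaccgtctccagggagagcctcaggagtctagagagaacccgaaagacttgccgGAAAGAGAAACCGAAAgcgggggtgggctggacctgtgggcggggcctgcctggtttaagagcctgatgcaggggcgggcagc
Socs3: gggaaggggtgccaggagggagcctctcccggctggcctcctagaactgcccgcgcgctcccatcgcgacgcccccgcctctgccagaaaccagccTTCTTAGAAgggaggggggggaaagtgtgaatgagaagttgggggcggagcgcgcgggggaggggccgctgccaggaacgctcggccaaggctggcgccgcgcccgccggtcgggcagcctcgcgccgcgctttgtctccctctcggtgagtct
Cish: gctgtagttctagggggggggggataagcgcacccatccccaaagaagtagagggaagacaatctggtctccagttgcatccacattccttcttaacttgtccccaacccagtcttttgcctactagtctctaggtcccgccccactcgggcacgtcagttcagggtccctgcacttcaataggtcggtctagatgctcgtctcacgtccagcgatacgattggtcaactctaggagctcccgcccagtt
Socs1 held 2 overlapping GAAA-GAAA matches, at 83 to 74 and 77 to 68 bases before the start. Stat2 held 1 GAAA-GAAA match on the reverse strand (222 to 213 bases before the start) and 1 TTC-GAA match with a gap of 4 bases (210 to 201). Socs3 held 1 TTC-GAA match with a gap of 3 bases (154 to 146). Stat4 held 1 GAAA-GAAA match (97 to 88), and Stat3, Stat5b, Stat6 and Cish held none of the 3 patterns in this window. Of 32851 promoters of 27025 genes, 7.02% held TTC-GAA with a gap of 3 bases, 5.85% TTC-GAA with a gap of 4 and 2.98% GAAA-GAAA with a gap of 2 in the same 250 bases. A match is a description of the letters and not a measured binding site.

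IL4 raised Cish and Socs1, and among the STAT transcripts Stat4 was the 1 called, lower. A gene was called when its adjusted p was under 0.05 and its fold change above 1.5, by the quasi-likelihood test of edgeR, with p adjusted by the Benjamini-Hochberg method over every gene tested in its table. 4 of 9 members were called, 2 higher and 2 lower, where 13.1% of all tested genes were called. Cish went from 0.206 and 0.137 to 28.5 and 25.4 CPM and Socs1 from 1.65 and 2.46 to 153 and 134 CPM, with no overlap in either. The log2 fold change of Socs1 was 6.11 (SE 0.13, adjusted p = 2.75e-32). Cish rested on 5 counts over both WT_Veh libraries, so its size is best given as a ratio of CPM of 157 (95% exact interval 67.0 to 485), and its fitted log2 fold change was 7.21 (SE 0.30, adjusted p = 8.93e-30). Stat4 fell from 1.93 and 1.23 to 0.393 and 0.307 CPM without overlap, a log2 fold change of -2.14 (SE 0.54, adjusted p = 0.00109). Socs3 was called lower (log2 fold change -1.67, SE 0.58, adjusted p = 0.0442, 1.65 and 7.05 CPM in WT_Veh and 1.49 and 1.23 in WT_IL4), but without WT_Veh replicate 2 the value was -0.28 (adjusted p = 0.663), and the call was also lost without either WT_IL4 library. Stat2 became called higher without WT_Veh replicate 2 (0.74, adjusted p = 0.000308) and Stat3 lower without WT_Veh replicate 1 (-0.72, adjusted p = 1.72e-17).

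Stat6, the factor that IL4 activates, was slightly lower after 6 h of IL4 (295 and 298 CPM against 234 and 239, log2 fold change -0.33, SE 0.052, adjusted p = 6e-07), and Stat5a slightly higher (0.44, SE 0.085). Neither reached the fold threshold. All 7 genes of a list of IL4 and STAT6 targets rose in the same libraries, led by Arg1, the arginase of alternatively activated macrophages, at a log2 fold change of 10.73. Socs2, another SOCS gene, rose by 5.61 on the log2 scale. Of 10 interferon-stimulated genes, 0 rose and 4 fell, where 13.1% of all genes were called. Their summed level was 204 to 217 CPM in WT_IL4, against 211 and 404 in the 2 WT_Veh libraries.

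IFNb moved 1 member, Stat2, the partner of the interferon receptors. 6.47% of all genes were called. Stat2 rose from 56.4 and 102 to 229 and 269 CPM with no overlap, a log2 fold change of 1.66 (SE 0.19, adjusted p = 1.72e-05). When the spread was estimated from these 2 groups alone the value was 1.66 with adjusted p = 0.147. Socs1, a well known inhibitor of interferon receptors, was at 0.842 and 1.84 CPM against 1.65 and 2.46 in WT_Veh, and the ranges overlapped. Its log2 difference was -0.65 (SE 0.34, adjusted p = 0.173) with a 95% interval of -1.32 to 0.021, and it became called lower without WT_IFNb replicate 2 (-1.28, adjusted p = 0.0299). Socs3 was at 2.46 and 1.84 CPM, within the WT_Veh range (95% interval of the log2 difference -1.99 to -0.017, adjusted p = 0.18), and became called lower without WT_Veh replicate 1 (-1.70, adjusted p = 2.61e-09). Cish was at 0.259 and 0.367 CPM. Of the 10 interferon-stimulated genes 9 rose, led by Ifi44 at 4.61 on the log2 scale, and none fell.

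Poly I:C raised 6 of 9 members and lowered none, where 47.2% of all genes were called. The median log2 fold change of the members was 2.12, and that of all genes -0.071. Stat2 went from 56.4 and 102 to 1058 and 1114 CPM and Stat3 from 125 and 197 to 694 and 703 CPM, log2 fold changes of 3.78 (SE 0.19, adjusted p = 4.75e-10) and 2.12 (SE 0.14, adjusted p = 7.72e-09). Socs1 rose to 134 and 131 CPM and Socs3 to 89.2 and 82.1 CPM. Their log2 fold changes were 6.00 (SE 0.14, adjusted p = 1.06e-32) and 4.29 (SE 0.26, adjusted p = 3.24e-09), and neither group pair overlapped. Cish reached 1.79 and 1.92 CPM, a ratio to WT_Veh of 10.8 (95% exact interval 4.17 to 35.6). Stat5a was just past the fold threshold at 0.60 (SE 0.089, adjusted p = 2.82e-08), and fell under it without WT_Veh replicate 1 (0.57). Stat5b (0.42, SE 0.066, adjusted p = 1.27e-07) stayed under it, and Stat6 was level (0.019, 95% interval -0.085 to 0.12).

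Set against each other, the 3 ligands gave different patterns in the feedback genes. Between IL4 and poly I:C no difference of Socs1 passed the test, with a log2 value of 0.11 (95% interval -0.035 to 0.26, adjusted p = 0.188). Socs3 was lower with IL4 than with poly I:C, at a log2 fold change of -5.97 (SE 0.33), and Cish higher, at 3.85 (SE 0.22). In that comparison 5 members were called, with 47.4% of all genes called. IL4 against IFNb gave 4 calls among the members (background 17.6%), with Socs1 and Cish higher, at 6.76 (SE 0.15) and 6.40 (SE 0.27), and Stat2 lower, at -1.40 (SE 0.19). Stat4 was also called lower there (-1.79, SE 0.57, adjusted p = 0.0085), a call that was lost without WT_IFNb replicate 1 or WT_IL4 replicate 2. Poly I:C against IFNb gave 6 calls, all higher with poly I:C (background 41.9%), and Stat2 itself was 2.12 (SE 0.18) higher on the log2 scale. Stat5b became called in 2 of these comparisons when a library was left out, lower with IL4 than with poly I:C without WT_IL4 replicate 2 (-0.63) and higher with poly I:C than with IFNb without WT_IFNb replicate 1 (0.61).

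RANKL lowered 3 STAT transcripts and raised Socs3 and Socs1. 5 of 9 members were called, where 43.8% of all genes were. Stat3 was at 71.6 and 67.9 CPM against 125 and 197 in WT_Veh, Stat5b at 39.1 and 36.3 against 71.7 and 75.5, and Stat6 at 189 and 190.2 against 295 and 298. The log2 fold changes were -1.21 (SE 0.15, adjusted p = 7.32e-06), -0.96 (SE 0.070, adjusted p = 5.5e-19) and -0.65 (SE 0.053, adjusted p = 8.08e-17), and none of the 3 overlapped. Socs3 rose to 22.9 and 21.5 CPM and Socs1 to 6.15 and 5.44 CPM, log2 fold changes of 2.35 (SE 0.31, adjusted p = 1.18e-05) and 1.49 (SE 0.24, adjusted p = 7.91e-07). With the spread from these 2 groups alone, the calls of Stat3 and Socs3 were lost (adjusted p = 0.0756 and 0.0937). RANKL libraries differ from WT_Veh in time and date stamp as well, and the 6 neutrophil and precursor markers, none of them at 0 in WT_RANKL, summed to 710 to 751 CPM there and to 1.98 to 4.26 CPM in WT_Veh, where 3 were at 0. The 4 fibroblast markers summed to 193 to 219 CPM and 87.8 to 96.4 CPM. Their part in the result was not tested.

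KLA moved all 9 members, 8 higher and Stat6 lower, against a background of 57.8%. The median log2 fold change was 2.82 for the members and -0.14 for all genes. Socs3 rose the most, from 1.65 and 7.05 to 2129 and 2139.6 CPM, a log2 fold change of 8.93 (SE 0.22). Socs1 rose to 209 and 220.0 CPM (6.70, SE 0.13, adjusted p = 3.73e-35) and Cish to 15.1 and 12.7 CPM, a ratio of 80.9 (95% exact interval 34.0 to 252) to the 3 and 2 counts of WT_Veh. Among the STAT transcripts, Stat2 reached 1078 and 1094 CPM, Stat3 941 and 924 and Stat5a 185 and 201, log2 fold changes of 3.78 (SE 0.20), 2.53 (SE 0.14) and 2.82 (SE 0.075). Stat5b rose less (71.7 and 75.5 to 119 and 114 CPM, 0.66, SE 0.068, adjusted p = 3.15e-13), and Stat6 fell from 295 and 298 to 165 and 171 CPM (-0.82, SE 0.057, adjusted p = 4.11e-20). None of these pairs of groups overlapped. The 4 fibroblast markers summed to 87.8 to 96.4 CPM in WT_Veh and 0.164 to 0.167 CPM in WT_KLA, where 3 of the 4 were at 0, and their part in the result was not tested. Stat4 was called higher at 1.26 (SE 0.38, adjusted p = 0.0028), but its levels were 2.46 and 5.17 CPM and without WT_KLA replicate 2 the value was 0.64 (adjusted p = 0.286).

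The KLA response was measured 3 more times with separate controls. All 9 members were called in the RGFP966 table (background 60.0%), 7 in the Pgc1b table (background 48.5%) and 8 in the TBK1i table (background 58.9%). Stat2, Stat3, Stat5a, Stat5b, Socs1, Socs3 and Cish rose in 4 of 4 comparisons. Over the 4 comparisons the log2 fold change of Socs3 ranged from 8.93 to 10.42, that of Socs1 from 6.70 to 8.30 and that of Cish from 6.25 to 7.56. Stat2 ranged from 3.78 to 4.20, Stat3 from 2.40 to 3.13 and Stat5a from 2.82 to 3.21. Stat4 was called in 3 of 4 (range 0.35 to 1.26) and Stat6 in 2 of 4 (range -0.82 to -0.24, below 0 in all 4). In the RGFP966 table the Stat4 call was lost without KLA replicate 1 (0.69, adjusted p = 0.126), and in the TBK1i table without DMSO_Veh replicate 1 or DMSO_KLA replicate 2. The Stat5b call in the Pgc1b table was lost without Pgc1b_flox_KLA replicate 2 (0.56, under the fold threshold). The tables were normalised separately, and no level of these vehicle and KLA controls was compared by a test with that of a control in another table. Cish with KLA was at 15.1 and 12.7 CPM in WT_KLA and 14.2 and 14.3 in KLA, and at 63.2 and 70.1 in Pgc1b_flox_KLA and 62.8 and 57.2 in DMSO_KLA.

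**Figure D2:**
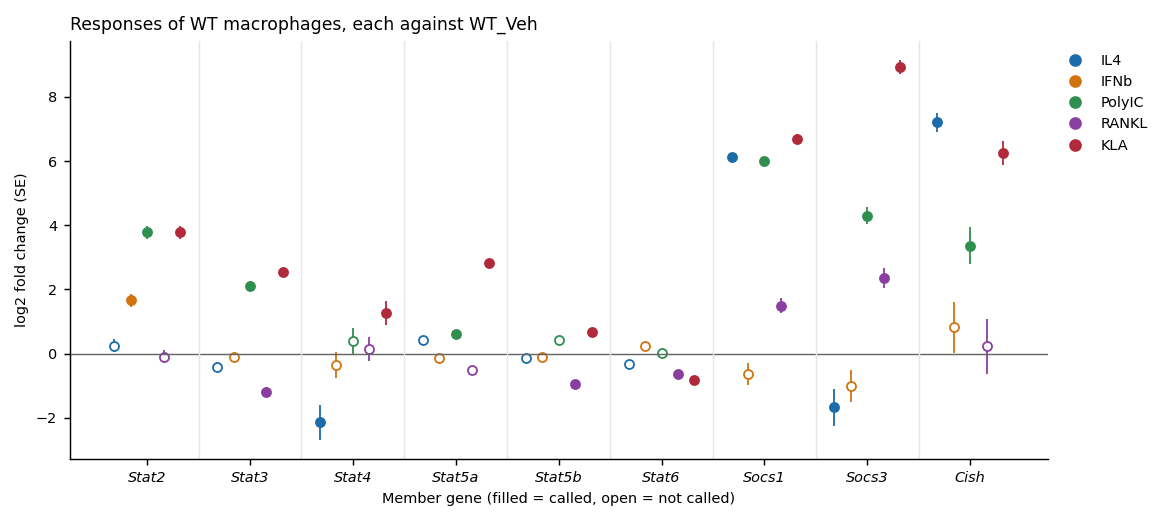
Log2 fold change of each member in WT cells after each of 5 ligands against WT_Veh, from edgeR, with standard errors as vertical lines, filled points for called values and open points for the rest. Socs3 at KLA (8.93), Cish at IL4 (7.21) and Socs1 at IL4, poly I:C and KLA stand highest, while Stat6 never rises above 0.22.

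The STAT transcript pool changed its make-up most with KLA and poly I:C. The summed level of the 6 STAT transcripts was 154 ± 19.9 RPKM in WT_Veh and 569 ± 4.14 in WT_KLA. Stat6 made up 51.4% ± 6.21 (SD, n = 2) of it in WT_Veh and 7.79% ± 0.143 in WT_KLA, while Stat2 went from 11.4% ± 3.23 to 42.9% ± 0.150 and reached 47.9% ± 0.732 in WT_PolyIC. Stat6 stayed the largest part in WT_RANKL (52.8% ± 1.29), WT_IL4 (47.0% ± 0.0938) and WT_IFNb (45.7% ± 1.35). The 3 feedback genes summed to 3.20 ± 1.82 RPKM in WT_Veh, 1.90 ± 0.389 in WT_IFNb, 117 ± 10.8 in WT_IL4, 131 ± 3.79 in WT_PolyIC and 950.0 ± 7.95 in WT_KLA. Socs1 supplied 91.9% ± 0.0498 of that sum with IL4 and 75.6% ± 0.670 with poly I:C, whereas Socs3 supplied 82.6% ± 0.410 with KLA. The ratio of Stat5a to Stat5b, neighbouring genes with closely similar coding sequence whose reads can be hard to tell apart, was 0.503 ± 0.00359 per length in WT_Veh and 2.25 ± 0.212 in WT_KLA, and in the other KLA tables it went from 0.455 ± 0.0445 to 2.05 ± 0.0173, from 0.444 ± 0.0272 to 2.60 ± 0.333 and from 0.559 ± 0.00575 to 2.89 ± 0.0393.

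**Figure D3:**
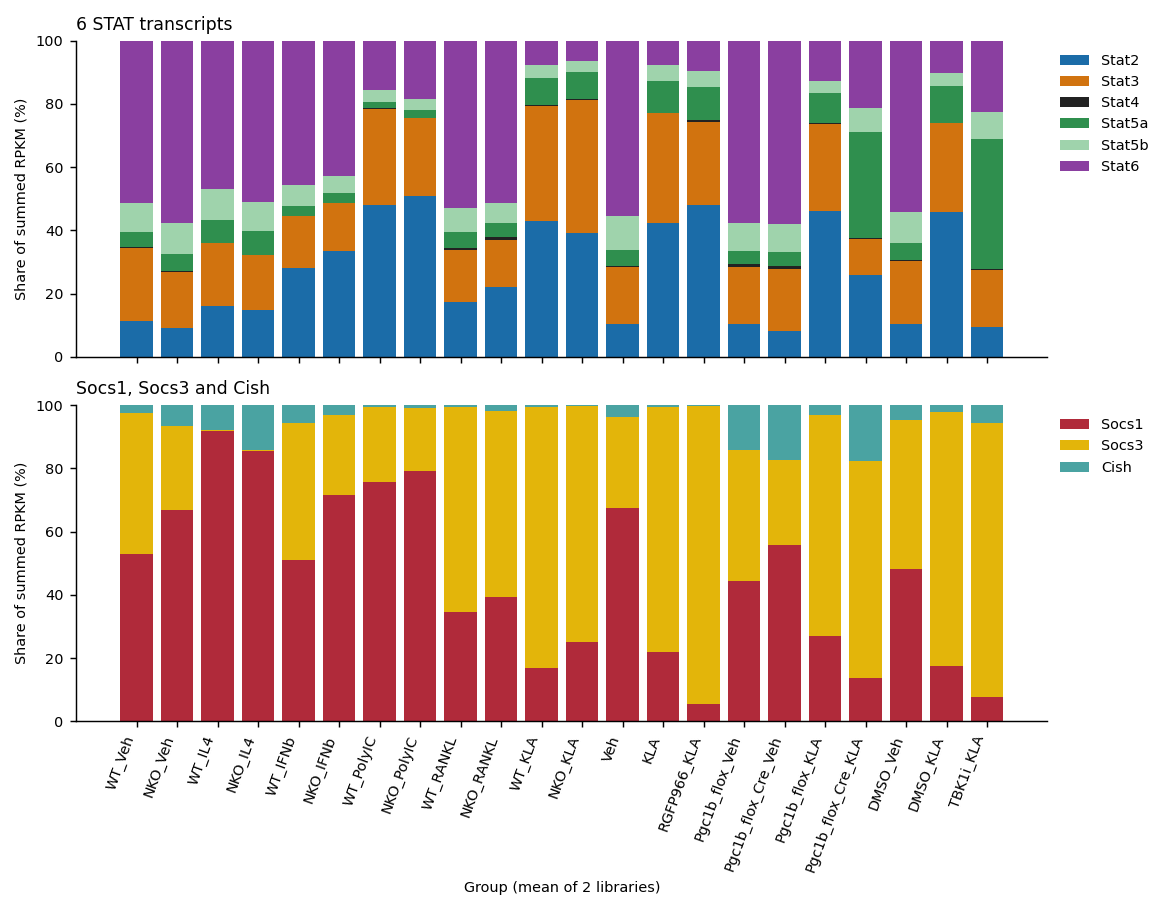
Share of the summed RPKM of the 6 STAT transcripts (upper panel) and of Socs1, Socs3 and Cish (lower panel) taken by each gene, in percent, as stacked bars of the mean of 2 libraries in each of 22 groups. Stat6 takes the largest part of the STAT sum in the unstimulated, IL4, IFNb and RANKL groups. Stat2 and Stat3 take it in most KLA and poly I:C groups, with Stat5a the largest in Pgc1b_flox_Cre_KLA (33.6% ± 0.140) and TBK1i_KLA (41.2% ± 0.178).

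Loss of NCoR changed few of the members at rest. In NKO_Veh against WT_Veh 2 were called, both lower, where 6.21% of all genes were called. Socs3 was at 1.00 and 0.570 CPM against 1.65 and 7.05 in WT_Veh and Socs1 at 0.861 and 1.08 CPM against 1.65 and 2.46, with no overlap in either. The log2 fold changes were -2.50 (SE 0.63, adjusted p = 0.0126) and -1.06 (SE 0.36, adjusted p = 0.0313). Both calls were lost without WT_Veh replicate 2, at -1.10 for Socs3 (adjusted p = 0.0543) and -0.74 for Socs1 (adjusted p = 0.305), and without NKO_Veh replicate 2 (-2.10 and -1.25). The Socs1 call was also lost without NKO_Veh replicate 1 (-0.92), and Stat2 and Stat3 became called lower without WT_Veh replicate 1 (-0.74 and -0.75). With all libraries Stat3 was at -0.46 (SE 0.14, adjusted p = 0.0399), under the fold threshold.

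With the 3 ligands that act through cytokine or TLR3 receptors for 6 h, at most 1 member was called in NKO against WT. In NKO_IL4 against WT_IL4 no member was called (background 4.24%), by edgeR or by DESeq2, although 3 had an unadjusted p under 0.05. Socs1 was at 104 and 93.8 CPM against 153 and 134 (-0.53, SE 0.073, adjusted p = 4.78e-07), Cish at 37.1 and 35.8 CPM against 28.5 and 25.4 (0.43, SE 0.13, adjusted p = 0.0101) and Stat6 at 266 and 268 CPM against 234 and 239 (0.17, SE 0.053, adjusted p = 0.0137). None of the 3 overlapped, and all were under the fold threshold, which Socs1 passed without WT_IL4 replicate 2 (-0.63) or NKO_IL4 replicate 1 (-0.61). In NKO_IFNb against WT_IFNb no member was called by either tool (background 3.8%), 2 had an unadjusted p under 0.05, and Stat2 was at 308 and 344 CPM against 229 and 269 (log2 difference 0.39, SE 0.17, adjusted p = 0.198). In NKO_PolyIC against WT_PolyIC, Socs3 was the 1 member called (background 5.93%), at 43.0 and 47.9 CPM against 89.2 and 82.1 without overlap and a log2 fold change of -0.91 (SE 0.19, adjusted p = 0.00368). DESeq2 did not call it (adjusted p = 0.109). Socs1 was at 83.7 and 93.2 CPM against 134 and 131, a log2 difference of -0.58 (SE 0.080, adjusted p = 3.8e-07) that lay just under the fold threshold and passed it with DESeq2 (-0.61) and without WT_PolyIC replicate 2 (-0.60) or NKO_PolyIC replicate 2 (-0.66). Stat3 was at 508 and 523 CPM against 694 and 703 (-0.44, SE 0.13, adjusted p = 0.0332).

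With RANKL, 2 members were called (background 13.2%). Stat2 was at 107 and 124 CPM against 77.5 and 69.6 (0.64, SE 0.20, adjusted p = 0.0245) and Socs3 at 13.6 and 12.2 CPM against 22.9 and 21.5 (-0.77, SE 0.26, adjusted p = 0.0375), with no overlap in either. Each of these calls was lost when single libraries were left out, Socs3 without any 1 of the 4 (values from -0.86 to -0.70) and Stat2 without either WT_RANKL library or NKO_RANKL replicate 2 (values from 0.54 to 0.72). Stat4 became called higher without WT_RANKL replicate 2 (1.17) or NKO_RANKL replicate 2 (1.10). Of the 10 interferon-stimulated genes 4 were higher and 1 lower in NKO_RANKL. Neutrophil and precursor markers summed to 1034 to 1094 CPM in NKO_RANKL and 710 to 751 CPM in WT_RANKL. T and NK cell markers summed to 15.7 to 19.1 and 6.70 to 8.24 CPM, and fibroblast markers to 229 to 323 and 193 to 219 CPM. Macrophage markers summed to 5279 to 5682 and 4379 to 4390 CPM, while the sums of B cell and dendritic cell markers overlapped. The part of these differences in the result was not tested.

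With KLA, Cish was the 1 member called in NKO_KLA against WT_KLA, although 40.0% of all genes were called. Cish was at 6.19 and 7.33 CPM against 15.1 and 12.7 without overlap, a log2 fold change of -1.04 (SE 0.20, adjusted p = 6.7e-06). Stat3 (1325 and 1357 against 941 and 924 CPM, 0.52, SE 0.13, adjusted p = 0.00332) and Socs1 (279.7 and 313 against 209 and 220.0 CPM, 0.47, SE 0.071, adjusted p = 3.94e-07) were higher by less than the fold threshold, and Socs3 was at 1726 and 1886 CPM against 2129 and 2139.6 (-0.24, SE 0.13, adjusted p = 0.138). NKO_KLA libraries differ from WT_KLA in stamp and sex as well as genotype, so they were also compared with the KLA controls of the other tables in a joint fit. Cish was called lower against each of them, at -1.38, -3.31 and -3.19 on the log2 scale against KLA, Pgc1b_flox_KLA and DMSO_KLA. Stat3 was called higher against Pgc1b_flox_KLA and DMSO_KLA (1.33 and 1.05). None of these controls shares the stamp of NKO_KLA, so the joint fit cannot separate stamp from genotype. The controls also differed among themselves, with mean Cish at 14.2, 66.6 and 60.0 CPM, and 13.9 in WT_KLA. The fibroblast markers summed to 6.57 to 8.25 CPM in NKO_KLA against 0.164 to 0.167 in WT_KLA. Of the 8 T and NK cell markers 4 or 5 were at 0 in NKO_KLA and 5 or 6 in WT_KLA, and their sums were 57.9 to 68.8 and 19.2 to 20.6 CPM. Their part in these values was not tested. Across the 6 conditions Socs3 was lower in NKO in each, from -2.50 (vehicle) to -0.24 (KLA) on the log2 scale, and the call was made in 3.

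Whether the NKO effect depended on the ligand was tested as an interaction with vehicle. At IL4 and IFNb no member was called (backgrounds 0.604% and 0.604%) and at poly I:C none (background 3.24%), with DESeq2 calling none either. The members with an unadjusted p under 0.05 numbered 0, 4 and 2. At RANKL, 2 members were called (background 14.2%), Stat2 with a difference in log2 fold change of 1.02 (SE 0.29, adjusted p = 0.0164) and Stat4 with 1.70 (SE 0.55, adjusted p = 0.015). At KLA, 3 were called (background 36.9%), Stat3 at 0.98 (SE 0.19, adjusted p = 0.000764), Socs1 at 1.52 (SE 0.36, adjusted p = 0.000525) and Socs3 at 2.26 (SE 0.65, adjusted p = 0.0106). All 5 comparisons share the 4 vehicle libraries. At RANKL, cell marker sums also differed between NKO and WT, as given above, and their part was not tested. Without WT_Veh replicate 2 the Socs3 value at KLA was 0.86 (adjusted p = 0.0754) and the Stat2 value at RANKL 0.53, under the fold threshold. The Socs3 call at KLA was also lost without NKO_Veh replicate 2 (1.86, adjusted p = 0.086). At RANKL, Stat2 lost its call without NKO_Veh replicate 1, WT_RANKL replicate 2 or NKO_RANKL replicate 2 as well (0.89 to 0.95), and Stat4 without replicate 1 of any of the 4 groups (1.23 to 1.38). Without WT_Veh replicate 1, Socs3 became called at IL4 (2.61), IFNb (2.22), poly I:C (2.28) and RANKL (2.42), Stat2 at IL4 (0.69), IFNb (1.13), poly I:C (0.68) and KLA (0.92), and Stat3 at IL4 (0.59), IFNb (0.74) and RANKL (0.89). Stat4 became called at KLA without WT_Veh replicate 2, NKO_Veh replicate 2 or WT_KLA replicate 2 (1.39 to 1.74). The Stat3 and Socs1 values at KLA kept their calls without each library in turn.

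**Figure D4:**
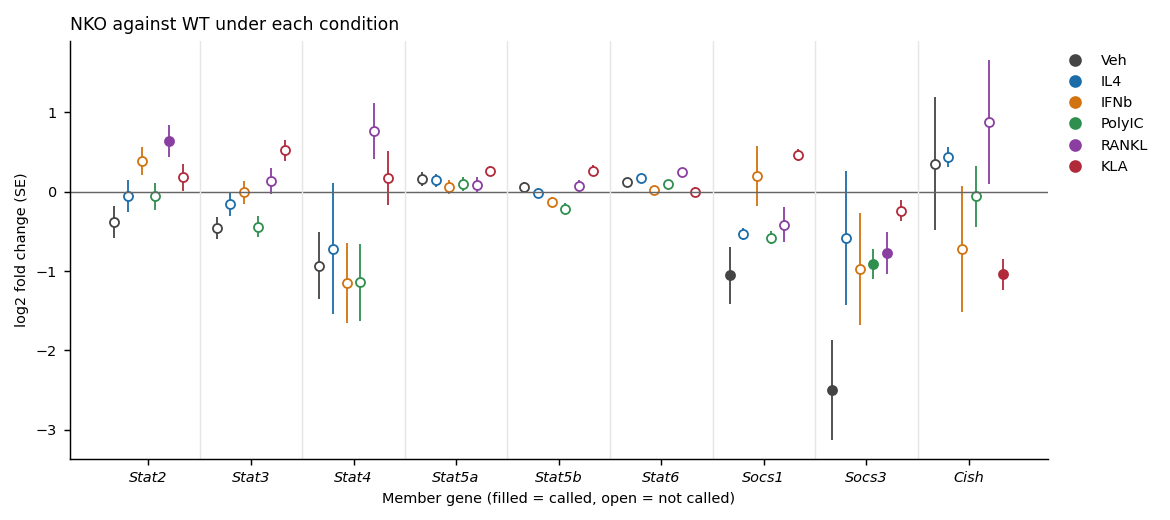
Log2 fold change of NKO against WT for each member under 6 conditions, from edgeR, with standard errors as vertical lines, filled points for called values and open points for the rest. Stat5a, Stat5b and Stat6 lie within 0.27 of 0 in all 6 conditions, and Socs3 lies below 0 in each.

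RGFP966 lowered Socs1 most among the members induced by KLA. In RGFP966_KLA against KLA 4 were called, 3 lower and 1 higher, where 25.4% of all genes were called. Socs1 fell from 239 and 205 to 39.4 and 43.4 CPM, a log2 fold change of -2.42 (SE 0.075, adjusted p = 8.09e-44), which is 5.36-fold lower. Stat3 fell from 795 and 671 to 454 and 439.9 CPM (-0.71, SE 0.059, adjusted p = 8.07e-18) and Cish from 14.2 and 14.3 to 7.59 and 4.65 CPM (-1.22, SE 0.19, adjusted p = 5.79e-08). Stat4 rose from 2.96 and 2.06 to 7.15 and 6.45 CPM (1.45, SE 0.26, adjusted p = 2.4e-06). None of the 4 overlapped. Socs3 was at 1439 and 1456 CPM against 1640.3 and 1531 (-0.13, 95% interval -0.24 to -0.026), and Stat2 847 and 784 CPM against 914 and 848 (-0.11, 95% interval -0.22 to -0.0026). The share of Socs1 in the summed RPKM of the 3 feedback genes was 22.0% ± 1.04 in KLA and 5.49% ± 0.311 in RGFP966_KLA. Against unstimulated Veh all 9 members were called in RGFP966_KLA, 8 higher and Stat6 lower (background 54.3%), with Socs1 still 4.96 above Veh on the log2 scale. RGFP966_KLA replicate 2 carries a later date stamp than the other libraries of its table.

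In the libraries labelled Pgc1b_flox_Cre, no member was called at rest (background 0.303%), by edgeR or DESeq2, with 3 at an unadjusted p under 0.05. With KLA 6 were called, 3 higher and 3 lower, where 26.1% of all genes were called. Stat2 was at 401 and 417 CPM against 893 and 856 in Pgc1b_flox_KLA, Stat3 at 179.5 and 182 against 555 and 505, and Socs1 at 131 and 114 against 292 and 245. These 3 fell, by log2 fold changes of -1.09 (SE 0.067), -1.55 (SE 0.069) and -1.14 (SE 0.091). Cish went the other way, from 63.2 and 70.1 to 369 and 339.8 CPM, a log2 fold change of 2.41 (SE 0.091). Stat5a rose from 166 and 151 to 462 and 458 CPM (1.53, SE 0.072) and Stat5b from 79.2 and 86.7 to 141 and 137 CPM (0.75, SE 0.085, adjusted p = 3.18e-09). No pair of groups overlapped for these 6 genes. Socs3 was at 1275 and 1229.5 CPM against 1464 and 1361 (-0.17, SE 0.080, adjusted p = 0.0867).

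The same 6 genes were called when the Cre effect at KLA was tested against that at vehicle (background 22.8%). The differences in log2 fold change were -0.82 (SE 0.11) for Stat2, -1.76 (SE 0.10) for Stat3, -1.85 (SE 0.40, adjusted p = 0.000361) for Socs1, 1.31 (SE 0.13) for Stat5a, 0.64 (SE 0.12, adjusted p = 6.19e-05) for Stat5b and 2.03 (SE 0.48, adjusted p = 0.000974) for Cish. The last rests on low counts at rest, and without Pgc1b_flox_Veh replicate 2 it was 0.95 (adjusted p = 0.449). Of the 10 interferon-stimulated genes 9 were lower and none higher in Pgc1b_flox_Cre_KLA, and their summed level was 10089 to 11629 CPM against 32523 to 33346 in Pgc1b_flox_KLA. Lyz2, whose promoter drives Cre, was at 4393 and 4533 CPM against 8049 and 8292. The part of this difference in the result was not tested.

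The TBK1 inhibitor gave the largest drop of Stat2. In TBK1i_KLA against DMSO_KLA 5 members were called, 2 higher and 3 lower (background 33.3%). Stat2 was at 139 and 139.7 CPM against 1014 and 1015 in DMSO_KLA and 62.1 and 58.3 in DMSO_Veh, a log2 fold change to DMSO_KLA of -2.87 (SE 0.045). Stat3 fell from 622 and 637 to 276 and 266 CPM (-1.21, SE 0.042) and Socs1 from 225 and 202 to 81.9 and 88.0 CPM (-1.33, SE 0.060). Stat5a rose from 229.6 and 216 to 535 and 529 CPM (1.25, SE 0.045) and Cish from 62.8 and 57.2 to 133 and 157 CPM (1.27, SE 0.070). No pair of groups overlapped for these 5 genes. Stat5b (0.52, SE 0.059, adjusted p = 1.45e-17) and Stat6 (0.56, SE 0.047, adjusted p = 2.89e-31) were higher by less than the fold threshold, and Stat6 with KLA and inhibitor stood at 289 and 283 CPM against 276 and 263 at rest. Socs3 was at 1894 and 2064 CPM against 2002 and 1997, a log2 difference of -0.015 with a 95% interval of -0.083 to 0.052.

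Against DMSO_Veh, 8 members were called in TBK1i_KLA, all higher (background 57.3%), with Stat2 at 1.21 (SE 0.053) and Stat5a at 4.26 (SE 0.055) on the log2 scale. Stat5a made up 11.6% ± 0.456 of the STAT sum in DMSO_KLA and 41.2% ± 0.178 in TBK1i_KLA, and Stat2 45.8% ± 0.188 and 9.36% ± 0.164. All 10 interferon-stimulated genes fell with the inhibitor, to a summed level of 90.1 to 94.3 CPM from 27735 to 28316 CPM in DMSO_KLA. Their median log2 fold change was -8.81. In DMSO_Veh the same sum was 187 to 204 CPM, above that with KLA and inhibitor. No group received the inhibitor without KLA, so its effect at rest was not measured.

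Side by side, the perturbations made at KLA with separate controls shared some directions. Stat2, Stat3, Stat5a, Socs1 and Cish were called in both Pgc1b_flox_Cre_KLA and TBK1i_KLA, each in the same direction in both. RGFP966_KLA shared 3 called members with each of these (Stat3, Socs1 and Cish), and Stat3 and Socs1 moved in the same direction while Cish moved in the opposite one. Cish, the 1 member called in NKO_KLA, was lower there and with RGFP966 and higher in the other 2. Differences in effect between these tables were not tested. Socs3 was called in none of the 4 perturbations at KLA, with log2 values from -0.24 to -0.015, and it had an unadjusted p under 0.05 in 2 of 4 (RGFP966_KLA, Pgc1b_flox_Cre_KLA).

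**Figure D5:**
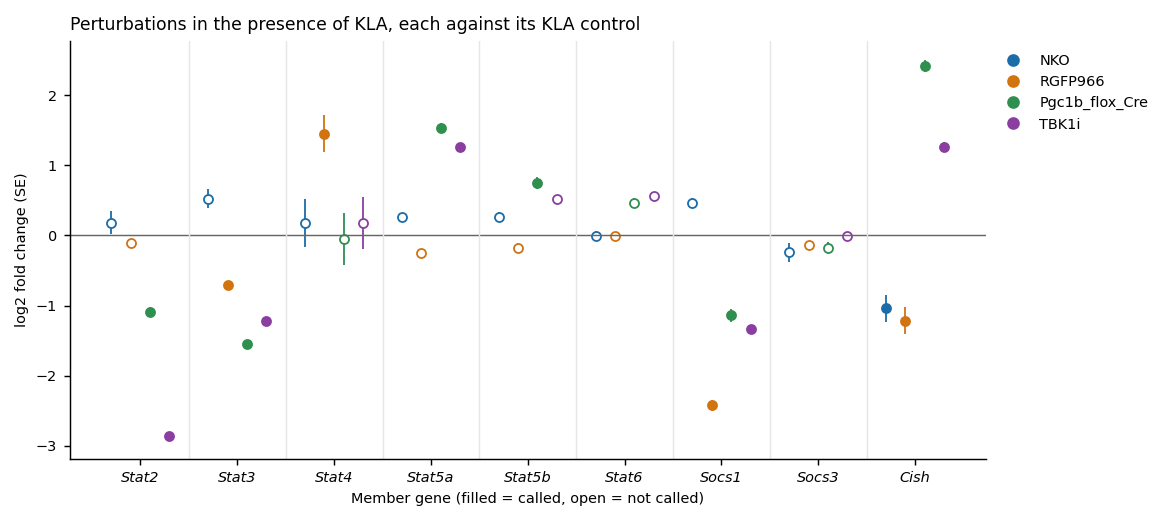
Log2 fold change of each member in NKO_KLA, RGFP966_KLA, Pgc1b_flox_Cre_KLA and TBK1i_KLA, each against the KLA control of its own table, from edgeR, with standard errors as vertical lines, filled points for called values and open points for the rest. Stat2 spans -2.87 to 0.18 and Cish -1.22 to 2.41, while Socs3 lies between -0.24 and -0.015.

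The order of the 12 groups of the NCoR table differed between members. Stat2 was highest in NKO_KLA, followed by WT_KLA, WT_PolyIC and NKO_PolyIC, of which neighbours overlapped, and then NKO_IFNb, WT_IFNb and NKO_RANKL, which did not. Stat3 ran NKO_KLA, WT_KLA, WT_PolyIC, NKO_PolyIC with no overlap, ahead of WT_Veh and both IFNb groups, which overlapped their neighbours. Stat5a and Stat5b were highest in NKO_KLA and WT_KLA and lowest in the 2 RANKL groups. Stat6 was highest in both IFNb groups, which overlapped, and lowest in both KLA groups, which overlapped. Stat4 showed overlaps between neighbours from NKO_KLA down to WT_IFNb and was lowest in the 2 IL4 groups. Socs1 ran NKO_KLA, WT_KLA, then WT_IL4 and WT_PolyIC, which overlapped, NKO_IL4, NKO_PolyIC, WT_RANKL and NKO_RANKL, and the remaining 4 groups overlapped. Socs3 ran WT_KLA, NKO_KLA, WT_PolyIC, NKO_PolyIC, WT_RANKL and NKO_RANKL with no overlap. Cish ran NKO_IL4, WT_IL4, WT_KLA and NKO_KLA with no overlap, and then both poly I:C groups, which overlapped.

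The genes whose group means most resembled each member were taken by Pearson's r of log2 CPM over the 12 groups of the NCoR table, among 9795 genes. They were Pnp (r = 0.994) and Ifi47 (r = 0.992) for Stat2, Sbds (r = 0.991) and Pigv (r = 0.990) for Stat3, and Tmsb4x (r = 0.957) and Smim3 (r = 0.956) for Stat4. For Stat5b they were Dirc2 (r = 0.973) and Hsd17b11 (r = 0.970). Among the genes most like Stat5a was Il4ra (r = 0.976), which encodes the IL4 receptor α chain, and among those most like Stat6 was Plxna2 (r = 0.941). For Socs1 they were Il4i1 (r = 0.982), an IL4-induced amino acid oxidase, and Zbtb5 (r = 0.976), for Socs3 Ccl22 (r = 0.991), a chemokine, and Plpp1 (r = 0.989), and for Cish Cltc (r = 0.976) and Fcgr2b (r = 0.974). These coefficients describe 12 means that share libraries and dates within groups, and no test was made.

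The other genes of the pathway were read from lists of cytokines, receptor chains, JAKs, other SOCS genes, other brakes and target genes. With KLA in WT cells, where 57.8% of all genes were called, 8 of 9 tested cytokines rose and 0 fell, led by Il6 at 12.61 on the log2 scale. 10 of 17 receptor chains rose and 3 fell, 3 of 4 JAKs rose, led by Jak2 at 4.76, and 1 of 5 other SOCS genes rose (Socs7, 1.84) while 2 fell. Of 9 other negative regulators 5 rose and 1 fell, led by Usp18, a protease that restrains the interferon receptor, at 6.56. All 10 interferon-stimulated genes and all 7 STAT3 target genes, a list that holds Socs3 itself, rose as well. Of 7 STAT6 targets 2 rose and 2 fell. The shares of other SOCS genes and STAT6 targets called were near that of all genes. With poly I:C (background 47.2%) 7 of 9 cytokines and 4 of 4 JAKs rose, and with IFNb (background 6.47%) none of the 4 JAKs was called.

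Under the perturbations at KLA, more cytokines were called lower than higher in each of the 4 comparisons. In TBK1i_KLA (background 33.3%) 3 cytokines rose, led by Il23a at 4.88, and 7 fell. There 3 of 16 receptor chains rose and 5 fell, and Usp18 was at -6.01. In Pgc1b_flox_Cre_KLA (background 26.1%) 3 of 11 cytokines rose, led by Lif at 3.46, 5 fell, and 8 receptor chains fell, led by Il21r. Tyk2, a JAK of the type I interferon receptor, was at -0.88 in Pgc1b_flox_Cre_KLA and -1.08 in TBK1i_KLA. With RGFP966 (background 25.4%) 1 of 10 cytokines rose and 5 fell, and 3 of 10 interferon-stimulated genes fell. In NKO_KLA (background 40.0%) 2 interferon-stimulated genes were higher and 1 lower, and 6 cytokines were lower, led by Il6 at -2.64, and 2 higher. In NKO_Veh 8 of 10 interferon-stimulated genes were lower (background 6.21%). Their summed level was 148 to 157 CPM there, against 211 and 404 in the 2 WT_Veh libraries. In NKO_PolyIC (background 5.93%) 7 of 9 cytokines were lower while no interferon-stimulated gene was called.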

How the data were processed

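RNA-seq counts of 44 libraries in 22 groups of 2 were analysed. Per the labels, poly(A) RNA libraries were read, and the submitters' processing notes name STAR, HOMER, DESeq2 and mm10. The authors deposited 4 tables of raw read counts per gene, not normalised, with 1 transcript per gene. The counting command in the deposited headers names no strand option, while the methods describe strand-specific libraries, so the 70 bases that Stat6 shares with Nab2, and reads common to Stat5a and Stat5b, are uncertain. Every count column was matched to a library by its name (0 columns were left unmatched). Each library had 8323493 to 16783155 counts in genes, 83.7% to 89.3% of its mapped reads. Intervals on ratios of low counts cover counting error only.

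The counts were tested with edgeR 4.0.16 in R 4.3.3 (TMM scaling, filterByExpr, quasi-likelihood test, limma 3.58.1), 1 fit per table over all its groups with Benjamini-Hochberg adjustment over the 13407, 12196, 12205 and 12332 genes tested. Calls needed an adjusted p under 0.05 and a fold change above 1.5. With 2 libraries per group, the p-values rest on a spread shared across genes, with a common biological coefficient of variation of 0.0421, 0.0433, 0.0665 and 0.031. A joint fit of 16 libraries (11267 genes) set NKO_KLA against the KLA controls of the other tables. The steps were tested on simulated data. RPKM was computed from TMM-scaled CPM and summed exon length, with Python 3.11.15, and figures were drawn with matplotlib 3.10.9.

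The genes named are the 9 members, the 2 genes most like each (for Stat5a and Stat6, 1 of the 2 is not reported here), the gene with the largest change of a list, and Ncor1, Ppargc1b, Lyz2 and Xist as checks of the labels. Lists covered cytokines, receptor chains, JAKs, other SOCS genes, other negative regulators, interferon-stimulated genes, STAT3 and STAT6 targets, and markers of macrophages, T and NK cells, B cells, neutrophils, dendritic cells, osteoclasts and fibroblasts. The members and lists were chosen with earlier results of these data known. Libraries of the same replicate number did not deviate together (correlations of -0.103 to 0.117 over 66 pairs of groups in the NCoR table), so the numbers were not used as pairs. No 2 replicates agreed within sampling noise. Alternatives were DESeq2 1.42.0, DESeq2 size factors, no filter, a mean of at least 5 CPM, a fit of the compared groups alone, a replicate block, no fold threshold, other KLA controls and leaving out each library in turn.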

Additional observations from a re-analysis of the deposited data

Results flagged for a closer look

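In all, 11 effects of a perturbation on a member differed between KLA or RANKL and vehicle by a test of the difference itself, an interaction term in edgeR. Each value is a difference in log2 fold change. For the NKO effect at RANKL against vehicle these were Stat2 at 1.02 (SE 0.29, adjusted p = 0.0164) and Stat4 at 1.70 (SE 0.55, adjusted p = 0.015). For the NKO effect at KLA against vehicle they were Stat3 at 0.98 (SE 0.19, adjusted p = 0.000764), Socs1 at 1.52 (SE 0.36, adjusted p = 0.000525) and Socs3 at 2.26 (SE 0.65, adjusted p = 0.0106). The NKO and WT libraries at KLA also differ in date stamp and sex, which cannot be told apart from genotype, and all 5 values share the vehicle libraries. Those at RANKL also differ in sums of cell markers, whose part was not tested. The calls of Stat2 and Stat4 at RANKL and of Socs3 at KLA were lost when single libraries were left out. Fits of the compared groups alone called 1 member at RANKL and 1 at KLA.

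For the effect of Cre in the Pgc1b table at KLA against vehicle, the differences were -0.82 (SE 0.11) for Stat2, -1.76 (SE 0.10) for Stat3, 1.31 (SE 0.13) for Stat5a, 0.64 (SE 0.12, adjusted p = 6.19e-05) for Stat5b, -1.85 (SE 0.40, adjusted p = 0.000361) for Socs1 and 2.03 (SE 0.48, adjusted p = 0.000974) for Cish. At vehicle these 6 genes had log2 values of -0.27, 0.21, 0.23, 0.10, 0.71 and 0.39 in the same order, none of them called. The call of Cish was lost without Pgc1b_flox_Veh replicate 2 (0.95).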

How the results depend on the processing

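No member's value changed sign past the test in any alternative. Of 261 member values, DESeq2 left 248 of the 254 it could give called or not called as before, and size factors 260. The replicate block ended 1 call, Socs3 in WT_IL4 against WT_Veh (-1.67, adjusted p = 0.0559, 3 members called in place of 4), and changed no other call of a member. The numbers do not pair the libraries. DESeq2 called 1 member in NKO_RANKL against WT_RANKL (2 in edgeR) and 4 in the RANKL interaction (2). Size factors and the 5 CPM mean each gave 2 for NKO_PolyIC (1), no filter gave 1 for NKO_RANKL (2), and the 5 CPM mean called 1140 of its genes (1770), of fewer genes tested. NKO_KLA gave 3 called members against Pgc1b_flox_KLA and 3 against DMSO_KLA (1).

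Fits of the compared groups alone, which rest on fewer libraries, called 0 members for WT_IFNb (1), 3 for WT_RANKL (5), 0 for NKO_Veh (2), 1 for NKO_IFNb (0), 1 for the RANKL interaction (2) and 1 for the KLA interaction (3), and 34 genes for the IFNb interaction (81) and 57 for Pgc1b_flox_Cre_Veh (37). Without the fold threshold, called members numbered 7 for WT_IL4 (4), 2 for WT_IFNb (1), 3 for NKO_IL4 (0), 4 for NKO_PolyIC (1), 5 for NKO_KLA (1), 1 for the PolyIC interaction (0) and 7 for RGFP966_KLA (4). Called genes numbered 4259 for WT_IL4 (1755), 3402 for WT_IFNb (867), 9236 for WT_RANKL (5873), 4997 for WT_IL4 against WT_IFNb (2354), 6214 for RGFP966_KLA (3097), 5184 for Pgc1b_flox_Cre_KLA (3182), 90 for Pgc1b_flox_Cre_Veh (37) and 7136 for TBK1i_KLA (4112). For NKO against WT they numbered 2690 at vehicle (832), 2299 at IL4 (568), 1806 at IFNb (510), 2675 at PolyIC (795), 4594 at RANKL (1770) and 8062 at KLA (5367), and for its interactions 483 at IL4 (81), 270 at IFNb (81), 1325 at PolyIC (434) and 3827 at RANKL (1908).

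Leaving out single libraries, the members called ranged from 1 to 2 for WT_IFNb (1), 0 to 4 for NKO_Veh (2), 0 to 1 for NKO_IL4 (0), 1 to 2 for NKO_PolyIC (1), 0 to 1 for NKO_RANKL (2), and in the interactions 0 to 3 at IL4 (0), 0 to 3 at IFNb (0), 0 to 2 at PolyIC (0) and 0 to 3 at RANKL (2). The upper value of NKO_Veh and of all 4 interactions came without WT_Veh replicate 1, and 0 at NKO_Veh without WT_Veh replicate 2 or NKO_Veh replicate 2. Called genes ranged from 58 to 279 for the IL4 interaction (81), from 36 to 258 for the IFNb interaction (81) and from 19 to 43 for Pgc1b_flox_Cre_Veh (37). The highest of the first 2 came without WT_Veh replicate 1. At these depths Cish, Stat4, Socs1 and Socs3 were each at fewer than 3 CPM in most resting libraries. Comparisons of these members with resting libraries therefore rest on few counts.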

Other observations

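Csf2, which encodes GM-CSF, a cytokine that signals through STAT5A and STAT5B, was looked at beside Cish at KLA after the values of both had been seen, so the pair is a description with no test. In the 8 KLA groups the mean of Cish was 6.12 CPM in RGFP966_KLA, 6.76 in NKO_KLA, 13.9 in WT_KLA, 14.2 in KLA, 60.0 in DMSO_KLA, 66.6 in Pgc1b_flox_KLA, 145 in TBK1i_KLA and 354 in Pgc1b_flox_Cre_KLA. Csf2 was at 1.12 CPM in RGFP966_KLA, 0.0906 in NKO_KLA, 0.414 in WT_KLA, 0.349 in KLA, 7.98 in DMSO_KLA, 10.2 in Pgc1b_flox_KLA, 38.2 in TBK1i_KLA and 77.2 in Pgc1b_flox_Cre_KLA. The 4 groups with the most Cish were the 4 with the most Csf2, in the same order, and all came from the Pgc1b and TBK1i tables. The remaining groups did not share an order. RGFP966_KLA had the least Cish (6.12) but more Csf2 (1.12) than KLA (0.349). The tables were normalised separately, and each point is a mean of 2 libraries.

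With IL4, Cish was at 28.5 and 25.4 CPM in WT and 37.1 and 35.8 in NKO, while Socs1 was at 153 and 134 and 104 and 93.8, so that Cish supplied 7.68% ± 0.0691 of the summed RPKM of the 3 feedback genes in WT and 14.0% ± 0.580 in NKO.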
